A study of Mus musculus with 1 sample.

Results

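Macrophages of MC38 tumors that were rich in Arg1, Spp1 and Mmp12 transcripts are described here. They were chosen by their own counts. A UMI stands for 1 captured transcript molecule. Cells needed 200 or more genes and no more than 20% of UMIs from mitochondrial genes. Among them, macrophages were those with at least 10 UMIs of C1qa, C1qb and C1qc together, at least 5 of Tyrobp and Fcer1g and fewer than 1 of the tumor cell genes Rhox5 and Shisal2b, each per 10000 UMIs of the cell. Cells with 3 or more UMIs of the division genes Mki67 and Top2a were left out. Members were the macrophages in the top 25% by the sum of Arg1, Spp1 and Mmp12 that were not in the top 25% by the sum of the interferon-induced genes Cxcl9, Ifit2 and Ifit3. There were 250 members among 1113 macrophages, a share of 22.5% (exact Clopper-Pearson interval 20.04 to 25.03%), out of 4640 cells past the filters and 5307 called cells. The 863 other macrophages served as the comparison, and the 584 of them that lay in neither top 25% served as a stricter one, because the rule removed interferon-high cells from the members only.

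The cells came from tumors grown from MC38, a mouse colon carcinoma line, in C57BL/6J mice. Material of 5 tumors had been mixed in equal parts before 1 library was made, so the cells carry no mark of the animal, no replicate exists and no test between groups was possible. The library is labelled WT with no shRNA named and was taken as the control pool of MC38 cells with a non-targeting shRNA, and the ATP6V0A1 knockdown pool was not analysed here. All intervals are 95% intervals and cover counting error only, which understates the spread between cells and says nothing of the spread between mice.

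Macrophages in tumors take different forms that depend on oxygen, lipid, dying cells and cytokines around them. Arg1 encodes arginase 1, which splits arginine into ornithine and urea. Spp1 encodes osteopontin, a secreted phosphoprotein that binds integrins and Cd44, and Mmp12 encodes macrophage elastase, a secreted metalloproteinase. Hmox1 encodes heme oxygenase 1, which breaks heme into biliverdin, iron and carbon monoxide and is induced through NRF2, the main transcription factor of the oxidative stress response. HIF-1, the factor stabilized when oxygen is low, raises glycolytic enzymes and its own prolyl hydroxylases.

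The limit of the top 25% lay at 15.05 UMIs of the 3 genes per 10000. The values just inside it ran from 15.05 to 15.53 over 5 cells and those just outside from 14.82 to 14.97 over 5 cells, so the limit cuts a continuous range. Members themselves ran from 15.12 over a median of 37.8 to 384.5, whereas the median of all macrophages was 2.74 and 374 macrophages (33.6%) had 0 UMIs of the set. Of the members, 53 had UMIs of 1 of the 3 genes, 119 of 2 and 78 of all 3. Arg1 was the broadest component, with 241 members having a UMI, a median of 24.9 per 10000 and a highest value of 90.3. Spp1 had a median of 6.17 and a highest value of 286.7, with 65 members at 0. Mmp12 had a median of 0 and a highest value of 141.2, with 151 members at 0. By itself, Arg1 would have taken 192 members past the limit, Spp1 87 and Mmp12 38. High sums of Arg1, Spp1 and Mmp12 and of the interferon genes seldom met in a cell. The interferon top 25% held 29 of the 279 cells of the Arg1, Spp1 and Mmp12 top 25% (10.4%, 7.07 to 14.6%). It also held 250 of the 834 macrophages below the limit of Arg1, Spp1 and Mmp12 (29.98%, 26.9 to 33.2%). Both sums are shares of the same cell's UMIs, and these values fixed the membership, so they are given as a description.

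**Figure D1:**
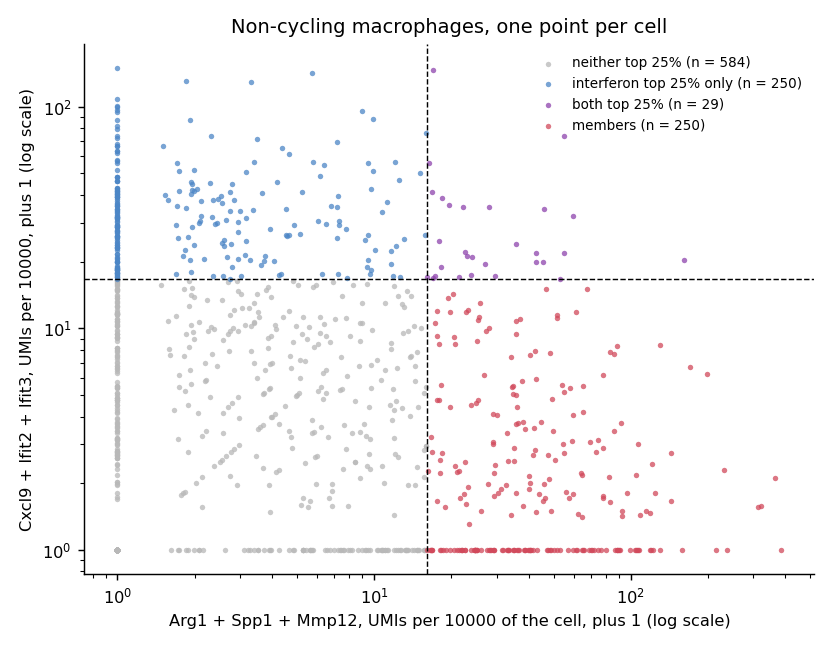
Each point is a non-cycling macrophage, with the UMIs of Arg1, Spp1 and Mmp12 per 10000 plus 1 on the x axis and those of Cxcl9, Ifit2 and Ifit3 plus 1 on the y axis, both on log scales. Dashed lines mark the 2 limits, and the 250 members fill the lower right part without a gap to the 584 cells in neither top 25%.

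A level is the UMIs of a gene in all cells of a group, scaled to 1000000 UMIs (CPM). Members held 2702634 UMIs in total and the other macrophages 6926416 UMIs. Where raw UMIs of the 2 groups are given below, equal counts are therefore not equal levels. The chosen genes had 3145 CPM of Arg1, 1963 CPM of Spp1 and 935 CPM of Mmp12 in members against 281, 136 and 15.9 CPM in the other macrophages, which the rule fixes. Outside the macrophages, Arg1 stood at 2.4 CPM in 1252 tumor cells and 7.1 CPM in 86 T and NK cells, and Mmp12 at 1.9 and 0 CPM (0 UMIs, which allows up to 5.32 CPM). In 69 Ly6c2 monocytes, which had little C1q by definition, Arg1 stood at 499 CPM, Mmp12 at 8.9 CPM and Hmox1 at 53.5 CPM. Spp1 was not limited to macrophages: it stood at 725 CPM in Ly6c2 monocytes, 767 CPM in T and NK cells and 169 CPM in tumor cells. A few Spp1 UMIs in a member can therefore come from RNA free in the suspension, and its part in the membership was not tested. Without Spp1 in the sum, 219 of the 250 members were chosen again, without Arg1 175 and without Mmp12 244. Values given below without Arg1 therefore describe a set of cells that differs more from the members.

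**Figure D2:**
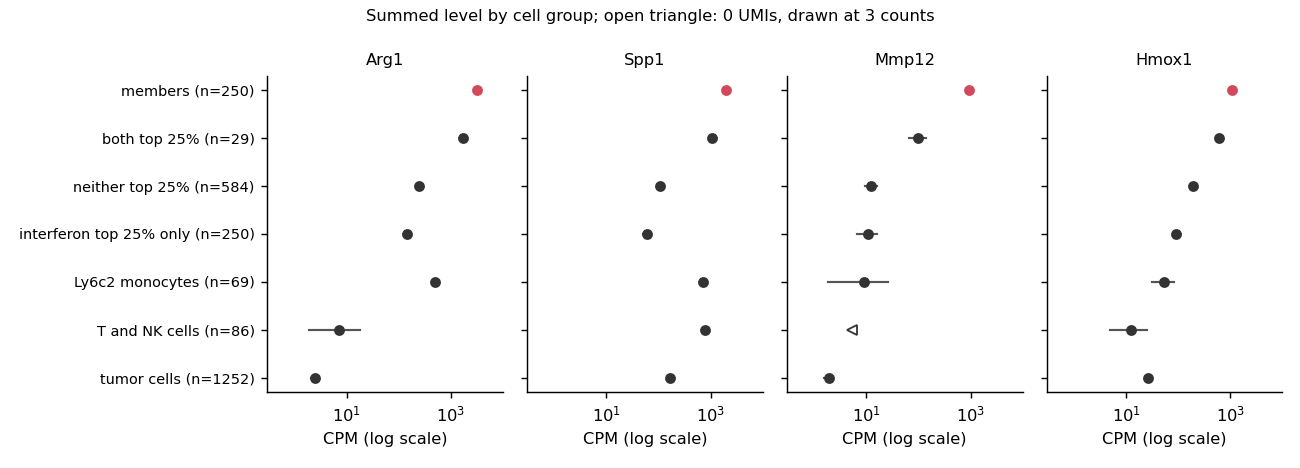
Points give the summed level of Arg1, Spp1, Mmp12 and Hmox1 (CPM, log scale) in 7 cell groups, lines their exact Poisson intervals, and the open triangle a group with 0 UMIs, drawn at the level of 3 counts. Members have the highest level of all 4 genes, of which Arg1, Spp1 and Mmp12 chose them, and Hmox1 runs from 12.4 CPM in T and NK cells to 1082 CPM in members.

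The members carried general macrophage markers. Of 11 macrophage identity genes, some of which other lists also hold, 0 lay past 2-fold in either direction. Over all 7014 tested genes, 1.8% were at least 2-fold higher and 1.55% at 0.5-fold or lower, so a count of 0 is near that share. Csf1r, the receptor of the growth factor Csf1, stood at 428 CPM in members and 479 CPM in others, Adgre1, which encodes F4/80, at 209 and 231 CPM, and Cd68, a lysosomal glycoprotein, at 918 and 601 CPM. The median log2 ratio of the list was -0.09 while its summed level was higher in members, 20373 against 14776 CPM, because the sum rests largely on lysozyme (Lyz2), with 12088 and 7258 CPM. Members were deeper than others, with medians of 10857 and 7507 UMIs and 2750 and 2265 genes, and had a lower median mitochondrial share, 1.77 against 2.67%. The part of depth in the results was not tested beyond the thinned shares and the limit of 3000 UMIs given with them.

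Hmox1, the marker that the rule did not use, stood at 1082 CPM (1043 to 1122) in members, 179 CPM (169 to 189) in the other macrophages and 189 CPM in those of neither top 25%. The ratio of members to others was 6.04 (5.65 to 6.46). Over cells it ran from 0 over a median of 2.66 to 189.0 per 10000 in members and from 0 over a median of 0 to 179.8 in others, so the ranges overlapped nearly in full. The signal was uneven, since 25 of the 250 members held 70.3% of the Hmox1 UMIs and 1 cell held 14.2%. With every cell thinned to 1000 UMIs, which leaves out 5 members and 71 others, 36.3% of members and 9.97% of other macrophages had an Hmox1 UMI, against 75.2 and 42.1% before thinning. Tumor cells and T and NK cells, in which Hmox1 UMIs can come from free RNA, had thinned shares of 2.20 and 1.25% at unthinned median depths of 49300 and 4993 UMIs. The mean over cells gave a ratio of 4.48, and members chosen without Arg1 in the sum gave 3.95.

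Across 7014 genes with at least 100 UMIs over both groups, 126 (1.8%) stood at least 2-fold higher in members and 109 (1.55%) at 0.5-fold or lower, with a median log2 ratio of -0.09. Averaged over cells instead of summed, 126 were higher and 232 lower. Against macrophages of neither top 25%, 101 of 6141 genes (1.64%) were at least 2-fold higher and 60 (0.977%) at 0.5-fold or lower. Against those of the interferon top 25% only, the shares were 3.37 and 2.99% of 4721 genes. These shares are the background against which the lists are read, and genes of the rule are left out of all of them. Of the 30 genes named by size of the ratio, the 15 highest and the 15 lowest each stayed past 2-fold in the same direction under every alternative in processing that was run.

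The highest ratio outside the rule was that of Tnfrsf9. This gene, which encodes the costimulatory receptor 4-1BB, stood at 88.8 and 6.93 CPM, a ratio of 12.8 (9.37 to 17.9), and its UMIs were concentrated, with 18.8% of members having any and 10 cells holding 52.9% of them. Mmp13, the collagenase 3 gene, stood at 177 and 22.2 CPM with a ratio of 7.97 (6.63 to 9.62) and UMIs in 31.2% of members. F10, which encodes coagulation factor X, had a ratio of 6.74 (4.60 to 10.1). Rnf128, an E3 ubiquitin ligase gene, stood at 28.1 and 4.04 CPM. Clec4d, a C-type lectin receptor gene, had levels of 245 and 46.3 CPM, with UMIs in 63.2% of members and 18.7% of others at their own depths and in 19.6 and 3.41% when thinned to 1000 UMIs. Selenbp1, a methanethiol oxidase gene, stood at 103 and 19.1 CPM. Tmeff1, a transmembrane protein gene, stood at 33.3 and 7.65 CPM. The others of the 15 were Slc7a2, Egln3, Hilpda, Slc7a11, Cd36, Gpnmb and Gstm1, which are described with their lists. Members chosen without Arg1 in the sum gave lower ratios for Selenbp1 (3.09), Hilpda (2.99) and Tmeff1 (2.88), and the mean over cells gave 2.79 for Slc7a11.

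Ratios at the low end were smallest for Ighm. This gene, the immunoglobulin mu heavy chain, had 9 UMIs in members and 411 in others, a ratio of 0.056 (0.025 to 0.108). The B cell list summed to 26.3 CPM in members and 87.2 CPM in others, and the source of these UMIs was not tested. Gbp2b, a guanylate-binding protein gene, stood at 9.99 and 60.2 CPM and was also lower than in neither top 25%, at a ratio of 0.241. Serpina3g, a serine protease inhibitor gene, stood at 15.2 and 86.6 CPM and Dnase1l3, an extracellular DNase gene, at 9.25 and 52.8 CPM. The paired membrane protein genes Tmem176a and Tmem176b stood at 36.3 and 62.9 CPM in members against 182 and 269 CPM. Klrk1, the gene of the activating receptor NKG2D, had a ratio of 0.198 (0.115 to 0.320), Tlr12, a sensor of protozoan profilin, 0.217, Nod1, a sensor of bacterial peptidoglycan, 0.259 and Siglece, an inhibitory receptor for sialic acid, 0.273. The remaining genes were BC147527, Calhm6, Klrb1b, Sectm1a and Vav2, with ratios from 0.177 to 0.275. Several of the 15 moved by over 1.5 times with the choice of members, comparison group or mean. Without Arg1 in the sum the ratios were 0.205 for Ighm, 0.411 for Serpina3g, 0.433 for Klrk1, 0.263 for Dnase1l3, 0.0966 for Gbp2b and between 0.380 and 0.418 for BC147527, Klrb1b, Nod1 and Sectm1a. With interferon-high cells kept, Ighm had 0.104 and Sectm1a 0.420, and against neither top 25% Dnase1l3 had 0.306 and Serpina3g 0.294. As means over cells BC147527 had 0.275 and Klrb1b 0.409. For the top 10%, Nod1, Gbp2b, Klrk1, Vav2, Tmem176b, Siglece and Tlr12 had ratios from 0.0618 to 0.133. Gbp2b, Serpina3g and the H2 genes belong to families of similar copies between which the counting can split reads.

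Genes of the hypoxia response were the list with the largest number past 2-fold. Of 20 tested genes, 12 stood at least 2-fold higher in members and 0 lower, 19 had a ratio above 1, and the median log2 ratio was 1.13 against -0.09 for all genes. Against neither top 25% the values were 10 of 20 and 1.08. Hilpda, which encodes an inhibitor of lipid droplet lipolysis, stood at 330 and 69.6 CPM with a ratio of 4.74 (4.24 to 5.30), and Egln3, the gene of the prolyl hydroxylase PHD3, at 74.7 and 14.9 CPM with 5.03 (3.94 to 6.44). Bnip3, which encodes a mitophagy receptor, ran from 0 over a median of 2.07 to 20.3 per 10000 in members and from 0 over a median of 0 to 15.4 in others, with UMIs in 74.4 and 39.9% of cells. Thinned to 1000 UMIs, 29.4% of members, 11.2% of others and 12.1% of tumor cells had a Bnip3 UMI, so the share in members lay above the others and that of the others near the level in tumor cells. The ranges of the groups overlapped. The ratios of Ndrg1 and Ero1l, an oxidase gene of the endoplasmic reticulum, were 3.71 and 3.69. Those of P4ha2, a collagen prolyl hydroxylase gene, and Adam8, a membrane metalloproteinase gene, were 3.75 and 3.56. Slc2a1, the glucose transporter gene, stood at 208 and 90.8 CPM and Vegfa, the endothelial growth factor gene, at 255 and 135 CPM, a ratio of 1.89 (1.71 to 2.09). Kdm3a (0.95), Car9 and Pfkfb3 (both 1.07) had ratios near 1.

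HIF-1 recognizes the core letters ACGTG, and promoters of list genes are shown because these genes stood higher in members together. The letters ACGTG, on either strand, were searched in the RefSeq promoters (GRCm38.p6) of 250 bases before and 50 bases after each gene's start. They were found for 17 of the 21 list genes with an entry and for 21.8% of all 27025 genes, and Ndrg1 had no entry, nor had Arg1 and Hmox1. The windows below hold up to 30 bases on each side of a match, 5′ to 3′ on the strand of the gene, with the matched letters in capitals. The Bnip3 window lies at chr7:138909580-138909644 on the minus strand with the match at position -108 from the start, here CACGTG, in which both strands hold the letters. The Egln3 window lies at chr12:54204069-54204124 on the minus strand with the match at -229. The Hilpda window lies at chr6:29272553-29272617 on the plus strand with the match at -43, and the Slc2a1 window at chr4:119108679-119108743 on the plus strand with the match at -36. A match of so few letters is a description of the sequence and not evidence of binding. This share and the motif shares given below for other lists are properties of the listed genes and not of these cells.
Bnip3: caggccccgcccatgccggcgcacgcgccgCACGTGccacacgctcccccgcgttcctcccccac
Egln3: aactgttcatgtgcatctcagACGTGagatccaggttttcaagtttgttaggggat
Hilpda: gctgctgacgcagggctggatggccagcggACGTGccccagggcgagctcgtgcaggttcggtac
Slc2a1: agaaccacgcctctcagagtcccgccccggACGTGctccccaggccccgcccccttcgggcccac

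Glycolysis enzymes differed less in size but nearly all in the same direction. Of 16 tested genes, 15 had a ratio above 1 and 3 stood past 2-fold, Pgk1 (2.34), Aldoc (2.12) and Pgam1 (2.04), with a median log2 ratio of 0.82. Ldha, the lactate dehydrogenase A gene, ran from 0 over a median of 11.4 to 37.7 per 10000 in members and from 0 over a median of 5.56 to 57.0 in others, and stood at 1326 and 752 CPM. Slc16a3, which encodes the lactate exporter MCT4, stood at 217 and 120 CPM. Hk3, a hexokinase gene, was the exception at 75.5 and 90.7 CPM.

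Genes of the NRF2 program and of heme and iron handling were higher in members in part. Of 12 tested NRF2 targets, 6 stood past 2-fold higher and 0 lower, with a median log2 ratio of 0.95. These were Slc7a11, the cystine importer gene (117 and 24.8 CPM), Gstm1, a glutathione transferase gene (48.5 and 11.3 CPM), Gclm, the regulatory subunit gene of glutathione synthesis (76.2 and 27.9 CPM), Mgst1, Srxn1 and the peroxiredoxin gene Prdx1 (1902 and 917 CPM). Txn1, which encodes thioredoxin, stood at 954 and 996 CPM, G6pdx at 36.3 and 37.5 CPM, and Nqo1 had 0 UMIs in members and 5 in others. The letters TGACNNNGC of the antioxidant response element occurred in promoters of 8 of the 14 listed genes with an entry and of 13.99% of all genes, and Gclc and Gsr had no entry. In the heme and iron list, 2 of 11 tested genes stood past 2-fold, Hmox1 and Slc48a1, a heme transporter gene of the lysosome (124 and 52.0 CPM). The ferritin genes Fth1 and Ftl1 stood at 32759 and 11625 CPM in members against 19787 and 6386 CPM, ratios of 1.66 and 1.82. The iron exporter gene Slc40a1 had 5 and 4 UMIs, and the hemoglobin scavenger receptor gene Cd163 had 1 and 9.

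Lipid-associated macrophage genes were above 1 in all 18 tested cases, with 9 past 2-fold and a median log2 ratio of 1.02 (0.82 over 17 genes against neither top 25%, where 8 were past 2-fold). The fatty acid binding protein gene Fabp5 ran from 0 over a median of 3.55 to 222.6 per 10000 in members and from 0 over a median of 0.866 to 89.7 in others, with levels of 1209 and 364 CPM. Cd36, the fatty acid and lipoprotein scavenger receptor gene, had a ratio of 4.45 (3.33 to 5.98) and Gpnmb, a lysosome-linked glycoprotein gene, 4.31 (3.34 to 5.57), the latter with 67.9% of its member UMIs in 10 cells. Lgals3, which encodes galectin 3, stood at 3951 and 1638 CPM, the tetraspanin gene Cd9 at 333 and 144 CPM and the lipid droplet coat gene Plin2 at 461 and 196 CPM. Trem2, a lipid-sensing receptor gene, stood at 886 and 594 CPM, a ratio of 1.49 (1.42 to 1.57), and Apoe, the apolipoprotein E gene, at 32626 and 28978 CPM. By contrast the 15 cholesterol efflux and LXR genes had 0 past 2-fold higher, and the cholesterol 25-hydroxylase gene Ch25h (25.2 and 56.6 CPM) stood past 2-fold lower. Their median log2 ratio was -0.03 while their sum was higher in members, 3136 against 2543 CPM, and the efflux pump gene Abca1 had a ratio of 1.70 (1.52 to 1.89).

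Of 11 lysosomal protease genes, only Ctsl, the cathepsin L gene, stood past 2-fold (1175 and 505 CPM). Of 17 tested subunit genes of the V-ATPase, the proton pump of endosomes and lysosomes, 0 stood past 2-fold in either direction, with a median log2 ratio of 0.11. Atp6v0a1, whose knockdown in tumor cells is the subject of the study, stood at 18.5 CPM (50 UMIs) in members and 13.1 CPM (91 UMIs) in others. Atp6v0d2, an alternative d subunit gene, had 50 UMIs in members and 12 in others, under the minimum of 100 for the list, with UMIs in 11.6 and 0.58% of cells.

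**Figure D3:**
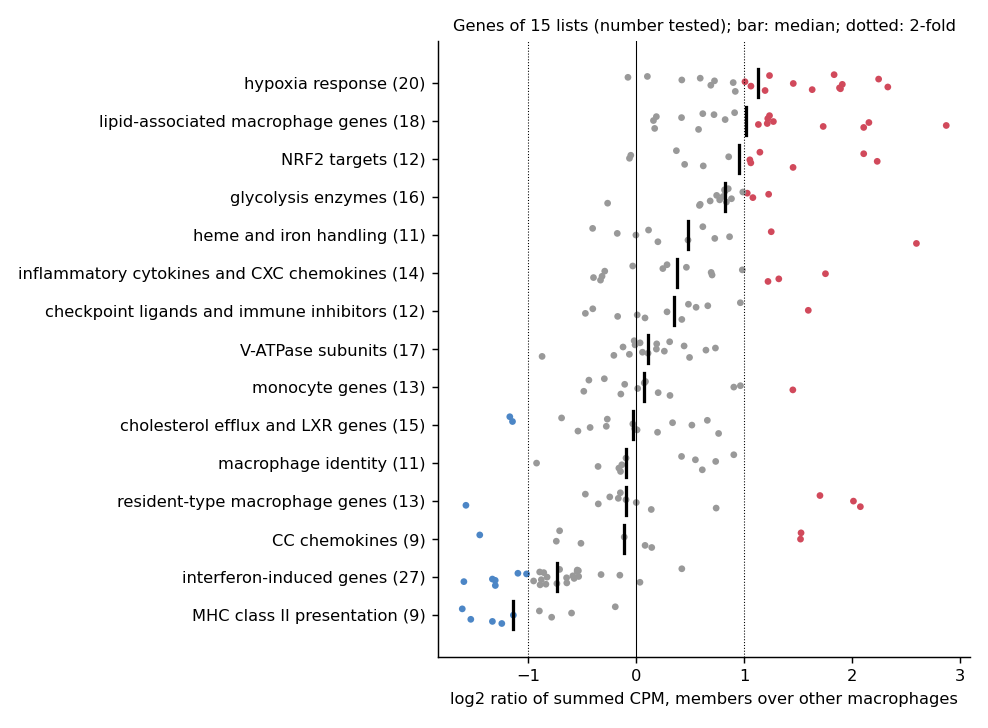
Each point is a tested gene of a list, placed by its log2 ratio of summed CPM, members over other macrophages, with red from 2-fold higher, blue from 2-fold lower and bars for the medians. The medians run from 1.13 for the hypoxia response to -1.14 for MHC class II presentation. Those of the V-ATPase, monocyte, cholesterol efflux, macrophage identity, resident-type and CC chemokine lists lie between -0.11 and 0.11.

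Metalloproteinase and arginine genes held a few members of their lists past 2-fold. Of 7 tested MMP and TIMP genes outside the rule, 1 was past 2-fold, Mmp13, and Mmp14, a membrane-bound collagenase gene, stood at 182 and 200 CPM. Mmp8, a collagenase gene of neutrophils, had 20 UMIs in members and 3 in others, and Mmp25 had 1 and 83. Of 11 arginine and polyamine genes, Slc7a2, an arginine importer gene, and Nos2, the inducible nitric oxide synthase gene, stood past 2-fold. Nos2 consumes the same substrate as arginase and stood at 94.0 and 26.0 CPM, a ratio of 3.62 (2.98 to 4.40), with UMIs in 32.0% of members. Odc1, which makes putrescine from ornithine, stood at 68.8 and 65.7 CPM and Arg2 at 5.18 and 3.61 CPM. The 8 tested osteopontin receptor genes had 0 past 2-fold, among them Cd44 with a ratio of 1.39 (1.22 to 1.59).

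Genes of MHC class II antigen presentation were lower in members across the list. All 9 tested genes had ratios below 1, 5 stood at 0.5-fold or lower, and the median log2 ratio was -1.14. Against neither top 25%, where the removal of interferon-high cells from the members matters less, 4 of 8 were at 0.5-fold or lower and the median was -1.01. H2-Aa, the alpha chain gene of I-A, ran from 0 over a median of 19.5 to 170.1 per 10000 in members and from 0 over a median of 58.6 to 284.2 in others, and stood at 3348 and 7929 CPM. H2-Eb1, the beta chain gene of I-E, stood at 2518 and 7278 CPM, a ratio of 0.346 (0.337 to 0.355). Cd74, the invariant chain gene, stood at 8840 and 16452 CPM. Ciita, the transactivator of the class II genes, stood at 21.1 and 64.4 CPM, a ratio of 0.327 (0.245 to 0.430). Shares of cells with a UMI hid the difference, being 91.2 and 91.3% for H2-Aa, and thinned to 1000 UMIs they were 72.2 and 88.0%, with 7.5% in T and NK cells.

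The class II promoters share a CCAAT-type element, searched as GATTGG and its reverse complement CCAATC. It was found for 7 of the 8 list genes with an entry and for 18.2% of all genes, while H2-Ab1, Cd74 and Ciita had no entry. Promoters of an alpha and a beta chain gene are shown with the matched letters in capitals. The H2-Aa window lies at chr17:34287837-34287902 on the minus strand with the match at -49, and the H2-Eb1 window at chr17:34305777-34305842 on the plus strand with the first match at -60.
H2-Aa: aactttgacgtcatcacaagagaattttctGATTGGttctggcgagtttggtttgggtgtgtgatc
H2-Eb1: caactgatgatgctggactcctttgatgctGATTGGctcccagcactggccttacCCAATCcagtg

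Interferon-induced genes outside the rule had a median log2 ratio of -0.73, with 6 of 27 at 0.5-fold or lower and 0 higher, a direction to which the removal of the interferon top 25% contributes. Against neither top 25%, 2 of 27 were at 0.5-fold or lower and the median was -0.48. Isg15 had a ratio of 0.405 against all others and 0.424 against neither top 25%, whereas Cxcl10, a chemokine gene for T cells, had 0.331 and 0.597. Rsad2, an antiviral enzyme gene, stood above neither top 25% at 1.58. Cd274, the gene of PD-L1, was higher in members with 131 and 97.7 CPM, a ratio of 1.34 (1.18 to 1.53).

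Cytokine and chemokine genes went both ways. Of 14 inflammatory cytokine and CXC chemokine genes, 3 stood past 2-fold higher, Cxcl2, a neutrophil attractant (480 and 142 CPM), Il1rn, the interleukin 1 receptor antagonist (183 and 73.2 CPM), and Il1a (22.2 and 9.53 CPM). Il1b stood at 299 and 376 CPM and Tnf at 19.98 and 26.3 CPM. Among 9 CC chemokine genes, Ccl6 (484 and 169 CPM) and Ccl9 (310 and 108 CPM) stood past 2-fold higher and Ccl8 (301 and 821 CPM) past 2-fold lower, with a median log2 ratio of -0.11 against others and 0.06 against neither top 25%. Of 12 checkpoint and inhibitory genes, 1 stood past 2-fold, Nt5e, the gene of the adenosine-producing enzyme CD73, at 49.2 and 16.3 CPM.

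Lists of macrophage origin showed single genes rather than groups. Among 13 resident-type genes, F13a1, which encodes a coagulation transglutaminase (236 and 56.0 CPM), Pf4, a platelet factor gene (1280 and 317 CPM), and Igf1 (31.5 and 9.67 CPM) stood past 2-fold higher and Cbr2 lower, with a median log2 ratio of -0.09 beside a higher sum in members, 4630 against 3869 CPM. Lyve1 and Timd4, defining genes of resident macrophages, had 0 UMIs in members. Pf4 was broad, with UMIs in 80.8% of members and a thinned share of 51.0% against 17.7% of others. Of 13 monocyte genes, 1 stood past 2-fold, Fn1, the fibronectin gene (629 and 230 CPM), while Ly6c2 stood at 93.2 and 75.1 CPM and Ccr2 at 58.1 and 64.1 CPM. Of 6 tested IL-4 response genes, only Retnla was past 2-fold, and 94.95% of its 376 member UMIs came from 1 cell, so it says nothing of the group. The complement list had 0 of 10 past 2-fold, with a median log2 ratio of -0.02 and a sum of 1758 against 1634 CPM, and the Fc receptor and phagocytosis list had 1 of 14, Cd36, with a median of 0.04. Angiogenic factors had 0 of 6, with a median of 0.10. Of 18 immediate-early and heat shock genes, which dissociation can induce, Ier3 (361 and 147 CPM) stood past 2-fold higher and Hspa1b (61.1 and 138 CPM) lower, with a median of -0.13.

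Markers of other cell types were low in members. The 12 T and NK genes summed to 3.33 CPM in members and 12.7 CPM in others, with 6 and 1 of them at 0, the former including Cd3e, Cd8a and Lck. The 10 dendritic cell genes summed to 25.9 and 59.3 CPM, with 5 and 2 at 0. The 10 granulocyte genes summed to 44.0 and 80.7 CPM, the 5 red cell genes to 14.8 and 31.0 CPM and the 10 fibroblast genes to 205 and 262 CPM. Of the 9 tumor cell genes, 5 were at 0 in members and 3 in others, among them Krt8 and Krt18, and the sums of 2422 and 2128 CPM rest on Tmsb10 and S100a6, which macrophages also express. The 7 endothelial genes were the exception, with 79.2 and 40.6 CPM. Of these, Fabp4 (28.5 and 3.90 CPM), also a lipid-associated macrophage gene, and Flt1 (20.4 and 6.79 CPM) were higher, while Cdh5 had 2 and 5 UMIs and Cldn5 1 and 1. The part of endothelial RNA in these values was not tested. Removal of the 172 cells with the highest doublet scores took 13 members (5.2%) and 16 other macrophages (1.85%), with 3.71% of all filtered cells.

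Levels were followed in 4 steps of the sum of Arg1, Spp1 and Mmp12 among cells outside the interferon top 25%: 363 macrophages up to the median, 221 between the median and the limit, 125 members with lower sums and 125 with higher sums. Since 25 of the 250 members held 70.3% of their Hmox1 UMIs, few cells can carry its level in a step, which the intervals do not cover. Hmox1 stood at 179, 200, 351 and 1666 CPM, so that most of its difference lay within the members, with a ratio of 4.75 (4.28 to 5.28) between their 2 parts. The hypoxia list instead was higher at each step, with sums of 1329, 1842, 2596 and 4332 CPM, as were the glycolysis enzymes with 8788, 11606, 14339 and 19556 CPM. The NRF2 targets had sums of 2151, 2376, 2484 and 4521 CPM. MHC class II sums were lower at each step, with 43649, 37037, 26669 and 20241 CPM, and the interferon list likewise, from 6213 to 4209 CPM. Within the members, Tnfrsf9 had 225 UMIs in the cells with higher sums and 15 in those with lower sums, Mmp13 413 and 66, and Nos2 224 and 30. The metallothionein gene Mt1, which binds zinc and copper, stood at 1048 and 3089 CPM in the lower and higher parts and Il1rn at 65.0 and 277 CPM. Depth differed along the steps, with a median of 6181 UMIs in the cells up to the median sum and 12292 UMIs in the members with higher sums, and the part of depth in these steps was not tested.

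**Figure D4:**
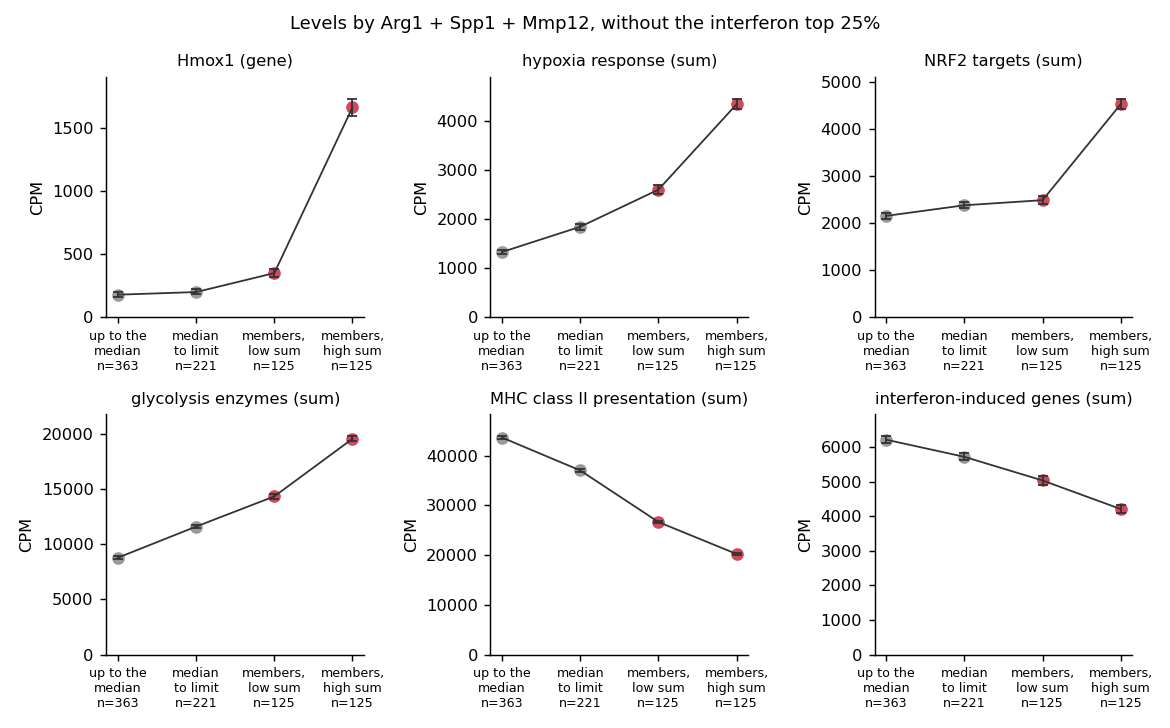
Points give summed levels (CPM, from 0) of Hmox1 and 5 gene lists in 4 groups of macrophages ordered by Arg1, Spp1 and Mmp12, with members in red, cells of the interferon top 25% left out and exact Poisson intervals as bars. Hmox1 and the NRF2 targets differ mainly between the 2 parts of the members, whereas the hypoxia, glycolysis and MHC class II lists differ at every step.

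The members were not uniform. Assigned to the gene with most UMIs in the cell, 172 were led by Arg1, 60 by Spp1 and 16 by Mmp12, with 2 ties, at median depths of 11271, 10593 and 10691 UMIs. Spp1-led members had lower levels than Arg1-led members of several hypoxia genes, namely Ndrg1 (38.0 and 104 CPM, ratio 0.367, 0.229 to 0.562), P4ha2 (14.2 and 46.0 CPM, ratio 0.310) and Bnip3 (169 and 359 CPM, ratio 0.472, 0.381 to 0.580). The whole hypoxia list summed to 2588 and 3736 CPM, and Hmox1 stood at 521 and 1195 CPM, a ratio of 0.436 (0.387 to 0.490). Higher in Spp1-led members were Ccl6 (736 and 407 CPM), Nt5e (82.3 and 37.5 CPM) and Isg15 (45.9 and 17.4 CPM), whereas Ccl5, a T cell attractant, stood at 266 and 706 CPM. Over all members, the top 25 cells for each gene held 74.3% of the Ccl5 UMIs and 63.1% of the Ccl6 UMIs. Few cells can therefore carry the levels of Ccl5 and Ccl6, which the intervals do not cover. The MHC class II list differed less, with 20637 and 23633 CPM.

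The 16 Mmp12-led members had the highest levels of the NRF2 and hypoxia lists, with sums of 7442 and 5301 CPM against 3485 and 3736 CPM in Arg1-led members. Mmp13 stood at 922 CPM against 118 CPM in Arg1-led and 158 CPM in Spp1-led members, a ratio of 7.79 (6.31 to 9.60) over Arg1-led members. Prdx1 stood at 5122, 1762 and 1481 CPM in the Mmp12-led, Arg1-led and Spp1-led members and Hmox1 at 1987, 1195 and 521 CPM. Tnfrsf9, F10 and Selenbp1 had ratios of 5.01, 3.90 and 3.56 over Arg1-led members. The monocyte list summed to 5628 CPM against 6061 CPM in Arg1-led members, a ratio of 0.929 (0.868 to 0.992). Within it, Cd14 stood higher with 1493 and 886 CPM, while Ly6c2 had 1 UMI against 195, Plac8 3 against 250 and Ccr2 2 against 113. These are raw counts out of 168091 UMIs in Mmp12-led and 1892383 UMIs in Arg1-led members, so they overstate the difference in level. All of these genes were picked after their values were seen. The chemokine genes Ccl8 and Ccl12 had ratios of 0.294 and 0.254 and the transcription factor gene Maf 0.273. With so few cells a single deep cell can carry a value, and the intervals do not cover this.

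**Figure D5:**
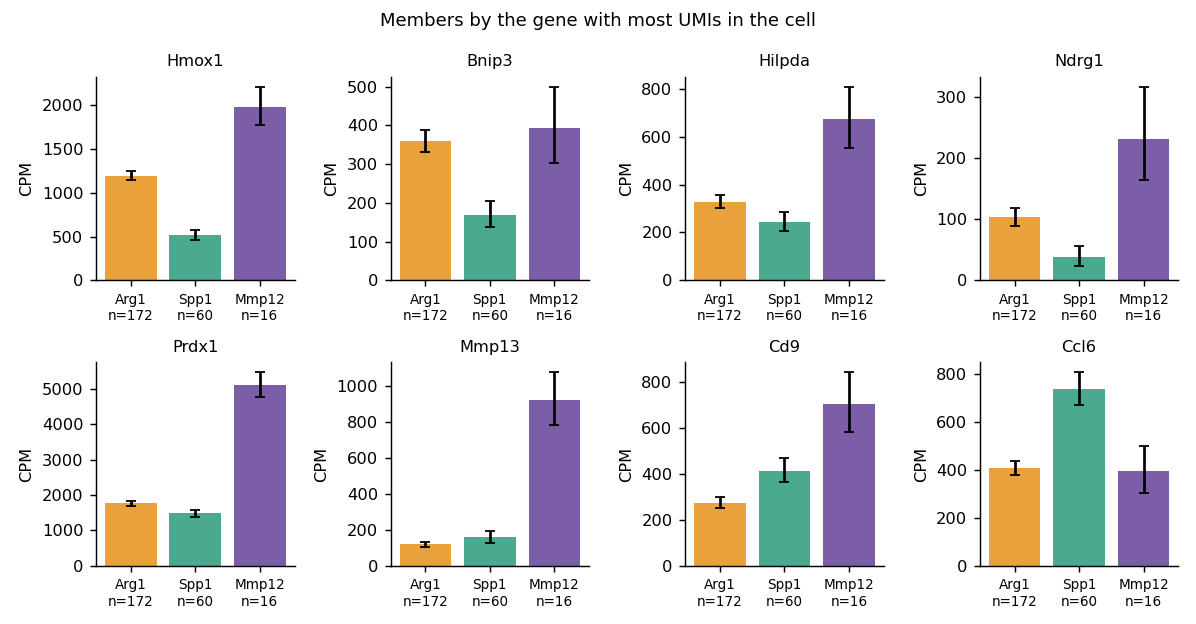
Bars give summed levels (CPM, from 0) of 8 genes in members led by Arg1 (172 cells), Spp1 (60) and Mmp12 (16), with exact Poisson intervals. Hmox1, Bnip3 and Ndrg1 are lowest in Spp1-led members, Prdx1, Mmp13 and Cd9 are highest in Mmp12-led members, and Ccl6 is highest in Spp1-led members.

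Across the 250 members, Mmp12 and Mmp13 had a Spearman correlation of 0.59, Hmox1 and Hilpda of 0.42, Hmox1 and Bnip3 of 0.37 and Arg1 and Hmox1 of 0.35. Mmp12 had 0.27 with Arg1, 0.18 with Spp1 and 0.31 with Hmox1. Arg1 and Spp1 had -0.10 and Spp1 and Hmox1 -0.0046. The points share a library and differ in depth, most pairs hold many zeros, and the choice of cells by the sum of Arg1, Spp1 and Mmp12 shapes the correlations between those genes, so the values are descriptions.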

How the data were processed

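UMI counts per gene and called cell of 1 10x library, without normalization, were used as the authors deposited them. The methods give CellRanger V3 with GRCm38/mm10, but per the file header the version was cellranger 5.0.1. The 32285 genes of 5307 cells summed to 106631000 UMIs (511 to 231902 per cell). The mitochondrial limit removed 667 cells. Of 1314 macrophages, 201 cycling cells were left out. Doublets were kept in the main values, and removal of 172 cells with the highest scores from simulated doublets was an alternative.

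The members and the 32 gene lists were chosen with earlier results of these data known. Genes named are the 4 markers, list genes, and the 15 highest and 15 lowest ratios with at least 100 UMIs and a UMI in at least 10% of cells of the higher group. Genes of the rule were left out of counts and lists. Symbols with 2 identifiers (38) were read from the row with more UMIs. Levels are summed UMIs per 1000000, with exact Poisson intervals for levels and conditional exact binomial intervals for ratios. With 1 library no test was run, and calls are folds of at least 2. Reference groups were set per 10000 UMIs. Tumor cells had Rhox5 and Shisal2b at 2 or more with C1q and Tyrobp plus Fcer1g each below 1. T and NK cells had Cd3d, Cd3e, Cd3g and Nkg7 at 5 or more, and Ly6c2 monocytes had Ly6c2 at 2 or more and Tyrobp plus Fcer1g at 5 or more, each with C1q below 10. Alternatives were another mitochondrial limit, doublet removal, interferon-high cells kept, the top 10%, each gene left out of the sum, at least 3000 UMIs, means over cells, a stricter comparison and a minimum of 20 UMIs. Ratios, intervals and fold counts were tested on Poisson counts drawn from the summed macrophage profile. These simulated counts leave out the spread between cells, so they cannot show how the intervals do with uneven genes. Promoters came from RefSeq (GRCm38.p6). The software was scipy 1.17.1, scikit-learn 1.9.0, pandas 2.3.3, matplotlib 3.10.9 and numpy 2.4.6 in Python 3.11.15. Some genes of the lists are not reported here by name.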

Additional observations from a re-analysis of the deposited data

How the results depend on the processing

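No paired analysis was possible because there is 1 library. The share of members was 25.1% with interferon-high cells kept. The Hmox1 ratio was 7.27 at 10% mitochondrial UMIs, 6.46 without doublet-scored cells, 6.51 with interferon-high cells kept, 3.95 without Arg1 in the sum, 7.58 at 3000 UMIs or more and 4.48 as a mean over cells. Genes at least 2-fold higher numbered 79 without Arg1 and 240 at a minimum of 20 UMIs. Genes at 0.5-fold or lower numbered 387 for the top 10%, 232 as means over cells, 60 against neither top 25% and 509 at a minimum of 20 UMIs. The NRF2 median log2 ratio was 1.38 for the top 10% and 0.71 as means over cells, and the hypoxia median 1.35 for the top 10% and 0.86 without Arg1. The MHC class II median was -1.02 with interferon-high cells kept, -1.41 for the top 10%, -0.99 without Spp1, -0.99 as means over cells and -1.01 against neither top 25%. The lipid-associated median stayed between 0.82 and 1.09. Medians of 10 lists changed sign under some alternative: macrophage identity to 0.058 without Spp1, CC chemokines to 0.059 against neither top 25%, and tumor cell genes to -0.26 as means over cells, -0.037 against neither top 25% and -0.37 at a minimum of 20 UMIs. The MMP list went to -0.11, angiogenic factors to -0.12 and IL-4 response to -0.68 for the top 10%. As means over cells, monocyte genes went to -0.19, osteopontin receptors to -0.079 and Fc receptors to -0.053, and complement went to 0.057 against neither top 25%. For these 7 lists, the value given is the farthest from the reported median among those with another sign. Without a change of sign, angiogenic factors went to 0.34 and complement to -0.25 at a minimum of 20 UMIs. The median over all genes was -0.18 for the top 10%, -0.13 without Spp1, and between -0.12 and -0.09 otherwise. The causes were not tested, apart from the minimum of 20 UMIs, which tests 10456 genes instead of 7014. Of 550 values of single genes and other lists, 74 moved by more than their interval or spread. Without replicates, depth limits only the counting error, and 5 members had fewer than 1000 UMIs.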
